A study of Mus musculus with 6 samples.

Results

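The genes described here are 32 genes that mark macrophages or carry out their work, taken by name from a fixed list out of the 35976 genes quantified in the series. They comprise the lineage regulator Spi1 and the growth factor receptor Csf1r, surface markers of leukocytes and macrophages, Fc receptors with their signalling adaptors, the chains of complement C1q, scavenger and lectin receptors, lysosomal and antibacterial proteins, and subunits of the phagocyte NADPH oxidase. RNA sequencing was carried out on cultured satellite cells, the stem cells of skeletal muscle, from mice whose NF-YA gene was floxed. Altogether 6 libraries were made, 3 labelled NF-YA cKO and 3 labelled NF-YA fl/fl, to ask how the transcriptome of these cells changes when NF-YA is lost, the subunit through which the transcription factor NF-Y recognises DNA. NF-YA cKO mice carried the floxed alleles together with Pax7-CreERT2, a tamoxifen-inducible recombinase made in Pax7-expressing cells, whereas NF-YA fl/fl mice, the controls, carried the floxed alleles without it. Mice of both genotypes received tamoxifen at an age of 5 to 7 weeks by the labels, whereas the study's methods give a slightly older range. Since the recombinase is driven by Pax7, deletion is not designed to take place in macrophages. The cells had been prepared from hindlimb muscle by magnetic removal of cells that carry CD31, CD45, CD11b or Sca1, and were then grown in growth medium.

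Macrophages are phagocytes that descend from yolk sac, fetal liver or bone marrow progenitors. Their differentiation and survival depend on the transcription factor PU.1, encoded by Spi1, and on signals of the growth factors Csf1 and Il34 through Csf1r. In skeletal muscle they reside between the fibers, accumulate after injury, clear debris and exchange signals with satellite cells and fibroblastic progenitors. In libraries made from a whole culture, fewer cells of a type and less RNA per cell cannot be told apart.

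Of the 32 genes, 23 were higher in NF-YA cKO cells and none was lower. Calls were made with edgeR's quasi-likelihood test over the 17348 genes for which 2 or more libraries held over 10 counts. A gene was called when its Benjamini-Hochberg false discovery rate (FDR) was below 0.01 and its log2 fold change exceeded 1 in either direction. Over all genes tested, 4.65% were called higher and 7.67% lower. The called members rose by log2 fold changes between 2.15 and 5.38, with a median of 3.71. Those with the highest fold changes were the lysozymes Lyz1 and Lyz2, the macrophage adhesion receptor Adgre1 (F4/80), the lysosomal protease Ctss and Cybb, the catalytic subunit of the phagocyte oxidase. A further 5 genes were tested and not called, namely Cd53, Cx3cr1, Cd14, Lgals3 and Ncf1. The remaining 4 genes, Aif1, Lst1, Fcgr1 and Cd163, had too few counts to be tested. All 28 tested members had a log2 fold change above 0, so that none had a lower level at an unadjusted p under 0.05 either, and DESeq2 likewise called 23 higher and none lower. Among the tested members, 17 passed the filter on low counts in NF-YA fl/fl libraries alone and 12 of these were called higher. The other 11 passed only through NF-YA cKO libraries and all 11 were called higher, which the filter itself favours.

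The libraries held between 26936230 and 41118984 counts, so that a count of 0 allows a level of up to 0.073 to 0.1114 CPM (counts relative to the library total), counting error only. The deleted allele of the targeted gene was read in NF-YA cKO libraries and in no control. An Nfya transcript entry of the deleted allele took 22.3% to 34.2% of the Nfya counts in NF-YA cKO cells (Wilson 95% intervals 19.6% to 25.2% and 31.5% to 37.0%) and none in NF-YA fl/fl cells, where a count of 0 allows up to 0.276% to 0.489%. Total Nfya did not pass the test, at 27, 28.5 and 27 CPM against 23.4, 25.7 and 36.9 CPM (log2 fold change -0.06, SE 0.18, FDR = 0.814). Xist lay between 836 and 852 CPM in NF-YA cKO libraries and between 0.306 and 0.475 CPM in the control libraries. The Y-linked gene Ddx3y lay at 0.047 to 0.0957 CPM (2 to 3 counts) against 80.9 to 88.6 CPM. Genotype and the sex of the animals therefore cannot be told apart in any comparison below. The study's methods, by contrast, name male mice for the tamoxifen treatment. Of the markers of the labelled cells, Pax7 was at 145, 165 and 201 CPM in NF-YA cKO and at 73.5, 87.5 and 105 CPM in the controls (log2 fold change 0.94, FDR = 0.00624, not called), whereas Cdh15 (-1.78, FDR = 0.000272) and Des (-2.09, FDR = 0.000218) were called lower and the summed level of all 8 listed markers was lower in NF-YA cKO. These 3 markers were named after their values were seen. NF-YA fl/fl replicate 3 stood apart from the other control libraries along the second principal component, which held 15.8% of the variance. Nothing in the labels ties a library to one animal, and p-values therefore measure the spread between these libraries, which may be technical.

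**Figure D1:**
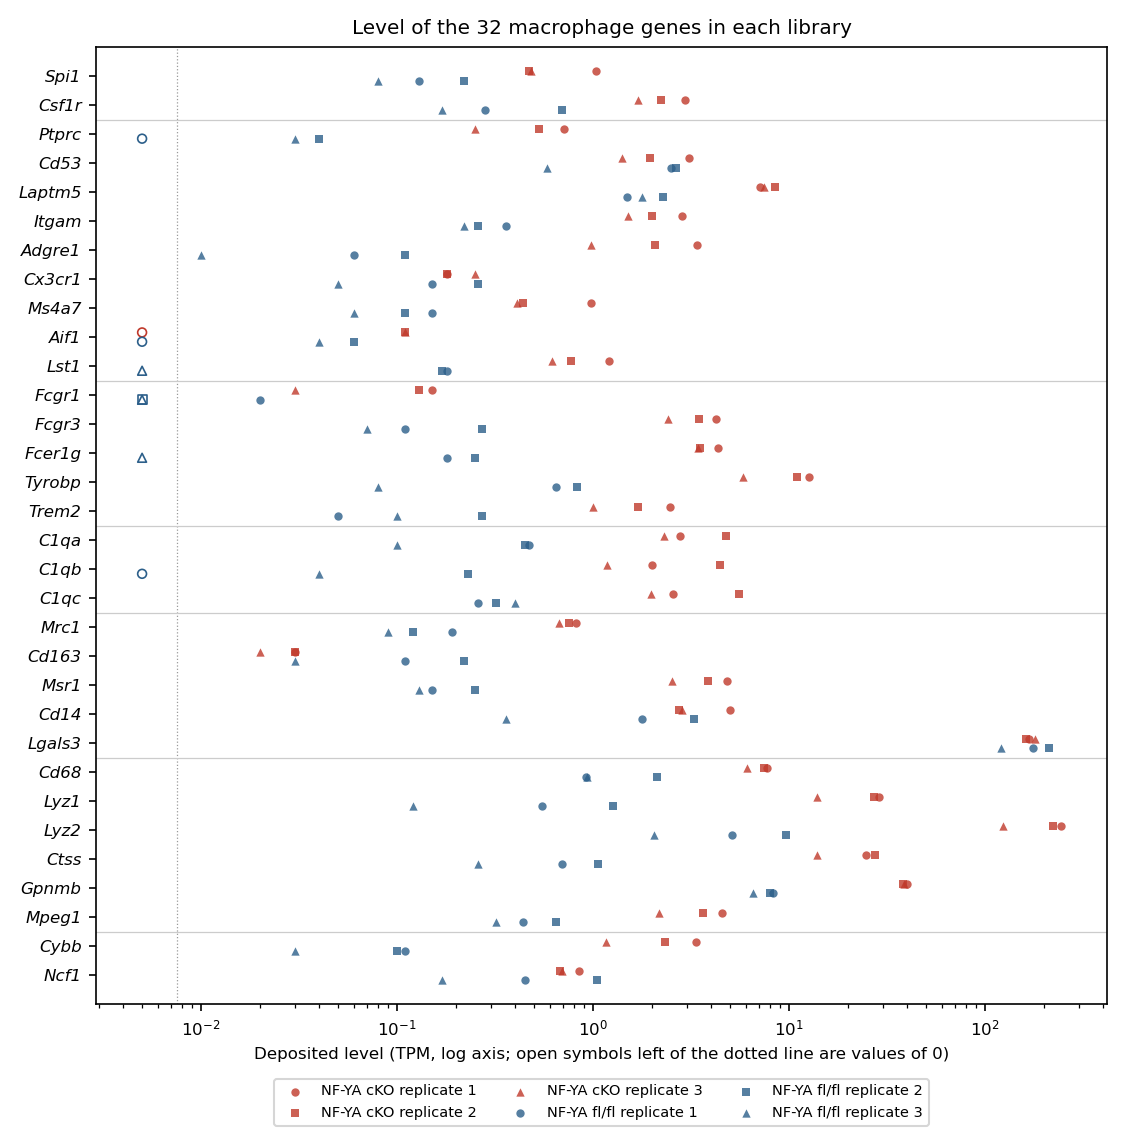
Deposited level in TPM, which relates reads to transcript length and library size (log axis), of each of the 32 genes in the 3 NF-YA cKO (red) and 3 NF-YA fl/fl libraries (blue), ordered by role between grey lines, with values of 0 as open symbols at the left. Lgals3 lies above 100 TPM in all 6 libraries, Lyz2 rises from at most 9.66 TPM to at least 124 TPM, and most other genes stay below 10 TPM.

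Upstream of these genes, the sequences before the transcription start were searched for letters of interest in 300-base windows (250 bases before and 50 after the start, RefSeq, GRCm38.p6). Of the 32 members, 24 had a window in the reference used here. CCAAT, the pentamer that NF-Y binds, was searched on both strands (ATTGG on the other) and was found in 12 of the 24 (50%), beside 41.1% of 27025 genes of the same table. It was present in 8 of 17 matched members that were called higher and in 4 of 7 others. GAGGAAGT, a purine-rich sequence of the kind bound by PU.1 (ACTTCCTC on the other strand), was found in 3 of 24 (12.5%), those of Cd53, C1qc and Ctss, beside 3.69% of genes. The following stretches are shown because they hold CCAAT letters within 100 bases before the start of genes called higher, and one PU.1-type match, in capitals, each read 5′ to 3′ on the strand of the gene. The windows are chr11:69666237-69666266 and chr11:69666213-69666242 (minus strand) for Cd68, chr2:14229322-14229351 (plus strand) for Mrc1, chrX:9469363-9469392 (minus strand) for Cybb and chr4:136893091-136893120 (minus strand) for C1qc. The matches begin 84 and 60 bases before the start in Cd68, 80 in Mrc1, 56 in Cybb and 195 in C1qc. These distances are counted from the RefSeq start of the window. For C1qc this start lies inside the gene span given below, which comes from GENCODE. A match describes letters and does not show a bound site.
Cd68, farther match: agaacgtcactgCCAATcacagcctaattg
Cd68, nearer match: taattgtgaaaaCCAATggcttgagtgggt
Mrc1: ggatatctctcaATTGGagggttttcctaa
Cybb: cctttcagttggCCAATgattagctaattt
C1qc: ggacggcagacACTTCCTCattttggcaca

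Spi1 and Csf1r, which specify and maintain the lineage, were both higher in NF-YA cKO cells, although Spi1 was among the least abundant members. Spi1 was at 1.18, 0.603 and 0.541 CPM in NF-YA cKO replicates 1 to 3 and at 0.153, 0.178 and 0.102 CPM in the controls replicates 1 to 3 (CPM on library sizes scaled by the trimmed mean of M values). The lowest NF-YA cKO library lay 3.03-fold above the highest NF-YA fl/fl library, and every NF-YA cKO library lay above every NF-YA fl/fl library in 29.1% of all genes tested. Its difference was 5.17-fold (log2 fold change 2.37, SE 0.47, FDR = 0.0084), and the call was lost when any single library was left out, with FDR values between 0.016 and 0.0317. Csf1r, the receptor tyrosine kinase for Csf1 and Il34, was at 9.22, 8.13 and 5.43 CPM in NF-YA cKO and at 0.917, 1.81 and 0.645 CPM in the controls. No NF-YA cKO library overlapped with a control library, and NF-YA fl/fl replicate 2 was the highest control. Csf1r was 6.66-fold higher (log2 fold change 2.74, SE 0.41, FDR = 0.00312). Its call was lost without NF-YA cKO replicate 1, 2 or 3 or NF-YA fl/fl replicate 1, with FDR values up to 0.0192.

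The ligands of Csf1r were measured in the same libraries. Csf1 was abundant, at a mean of 348 TPM over the 6 libraries. It was at 1396, 1253 and 1350 CPM in NF-YA cKO and at 1205, 1101 and 911 CPM in the controls, a log2 fold change of 0.31 that was not called (SE 0.13, FDR = 0.104). Il34, the second ligand, was at 6.03, 7.82 and 7.73 CPM against 2.71, 3.72 and 3.26 CPM and was called higher (log2 fold change 1.15, SE 0.20, FDR = 0.00527), a call that was lost when NF-YA cKO replicate 1, 2 or 3 or NF-YA fl/fl replicate 1 was left out, with FDR values up to 0.0348. Il34 was named after its values were seen.

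Among the surface markers, the genes of CD45 and CD11b, antigens of the magnetic depletion, were higher in NF-YA cKO cells. Ptprc encodes CD45, the phosphatase found on all leukocytes, and was at 3.06, 2.80 and 1.15 CPM in NF-YA cKO and at 0, 0.149 and 0.17 CPM in the controls (20.4-fold, log2 fold change 4.35, SE 0.72, FDR = 0.00436). Ptprc lost this call without NF-YA cKO replicate 1 or 2 or NF-YA fl/fl replicate 1 or 2, with FDR values up to 0.0229. Itgam, which encodes the integrin chain CD11b, was at 11.3, 9.31 and 6.20 CPM against 1.45, 0.862 and 1.09 CPM. All NF-YA cKO values of Itgam were at least 4.27-fold above the highest control, and it was called 7.91-fold higher (log2 fold change 2.98, SE 0.31, FDR = 0.000931). The genes of the other depletion antigens were not called. Pecam1 (CD31) had a log2 fold change of 0.69 (SE 0.25, FDR = 0.063) and Ly6a (Sca1) one of -2.05 (SE 0.71, FDR = 0.059), with 18.5 and 26.9 CPM in the controls replicates 1 and 2 but 2.83 CPM in replicate 3. Pecam1 and Ly6a were named after their values were seen.

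Adgre1, an adhesion G protein-coupled receptor used to identify mouse macrophages, was at 9.02, 6.59 and 2.75 CPM in NF-YA cKO and at 0.153, 0.238 and 0.0339 CPM in the controls. The control values stood for 4, 8 and 1 counts. Adgre1 was 41.3-fold higher (log2 fold change 5.37, SE 0.67, FDR = 0.00165). It lost its call without NF-YA cKO replicate 2 or NF-YA fl/fl replicate 1, with FDR values up to 0.0115. Laptm5, a lysosomal membrane protein of blood cells, showed the smallest rise of the called members (4.44-fold, log2 fold change 2.15, SE 0.21, FDR = 0.000697). Its levels were 14.4, 20.2 and 15.8 CPM against 3.06, 3.90 and 4.41 CPM, and its call held with every library left out. Ms4a7, a membrane protein of tissue macrophages, was at 0.988, 0.531 and 0.447 CPM against 0.153, 0.0892 and 0.0679 CPM and was called 6.19-fold higher (log2 fold change 2.63, SE 0.51, FDR = 0.0079). Like Spi1, it lost this call when any single library was left out (FDR up to 0.0273).

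Another 2 surface markers were tested and did not pass. The tetraspanin Cd53, found on many leukocytes, was at 7.17, 5.36 and 3.36 CPM in NF-YA cKO and at 5.89, 5.11 and 1.63 CPM in the controls, so that the genotypes overlapped (log2 fold change 0.33, SE 0.49, FDR = 0.624). Its control level of 1.91 ± 1.15 TPM (SD, n = 3) was far above that of Ptprc, at 0.0233 ± 0.0208 TPM. Cx3cr1, the fractalkine receptor of monocytes and many resident macrophages, was at 0.574, 0.676 and 0.823 CPM against 0.497, 0.624 and 0.204 CPM, again with overlap (log2 fold change 0.64, SE 0.43, FDR = 0.272). In contrast to most members, it was highest in NF-YA cKO replicate 3. Aif1 (Iba1), an actin-binding protein of macrophages and microglia, held 0, 4 and 3 counts against 0, 1 and 1. Lst1, a small leukocyte transmembrane protein, held 8, 8 and 6 counts against 1, 1 and 0, and its FDR was 0.0294 when no filter was applied.

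**Figure D2:**
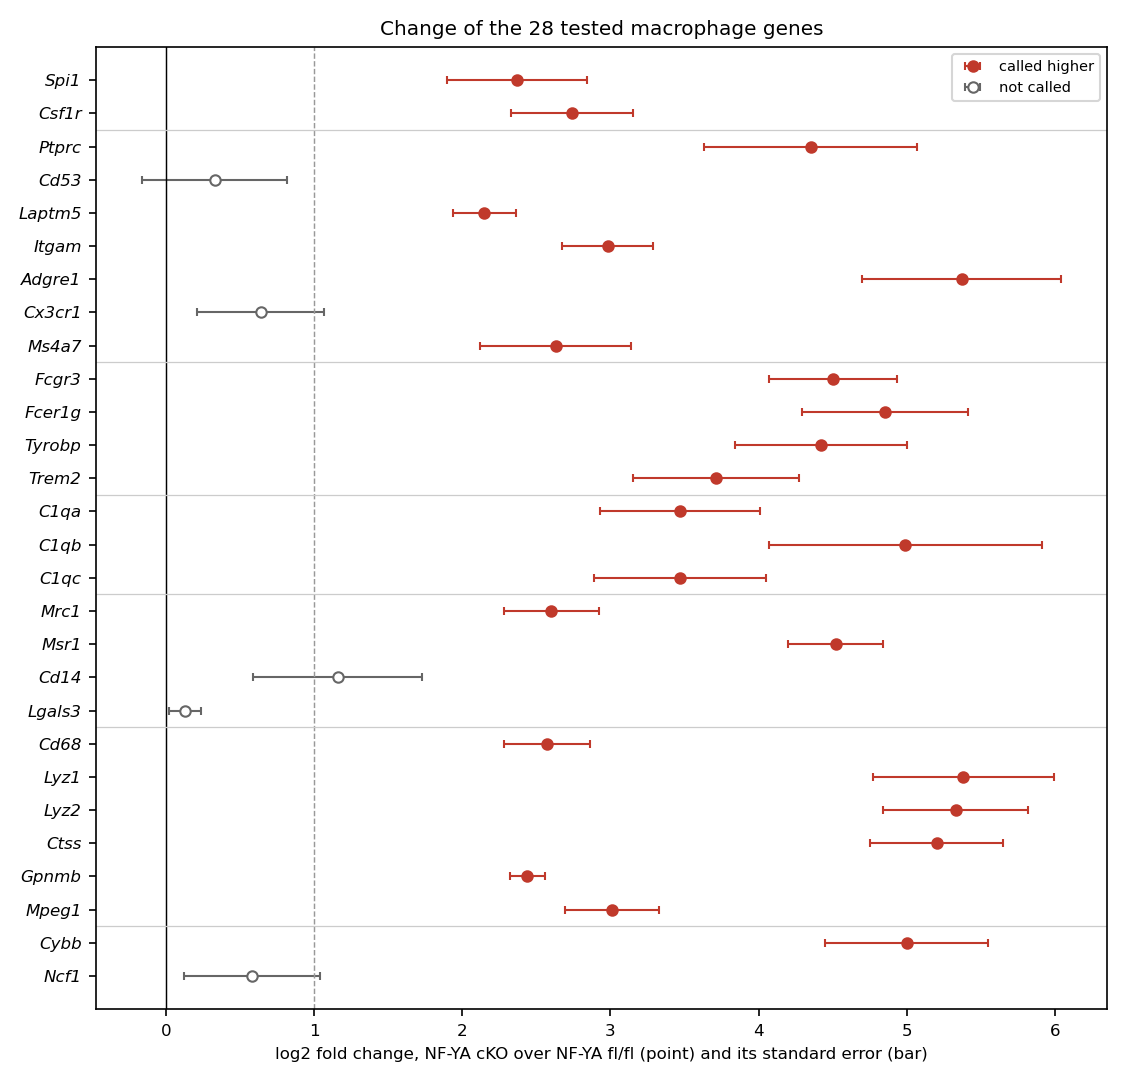
log2 fold change of NF-YA cKO over NF-YA fl/fl (points) with its standard error (bars) for the 28 tested genes, in the same order, with genes called higher in filled red and genes not called as open circles. The solid line marks 0 and the dashed line the threshold of 1. The called genes lie between 2.15 and 5.38, and the uncalled ones between 0.13 (Lgals3) and 1.16 (Cd14).

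In the Fc receptor group, 4 of 5 genes were tested and all 4 were called higher, beside 4.65% of all genes tested. Their log2 fold changes were 3.71 to 4.85. All 4 passed the filter on low counts only through NF-YA cKO libraries, which favours the count of calls. Fcgr3, a low-affinity receptor for immunoglobulin G, was at 4.59, 4.28 and 2.68 CPM in NF-YA cKO and at 0.115, 0.268 and 0.102 CPM in the controls (22.7-fold, log2 fold change 4.50, SE 0.43, FDR = 0.000672). Fcer1g, the common gamma chain through which Fc receptors signal, was at 1.85, 1.76 and 1.53 CPM against 0.0765, 0.0892 and 0 CPM (log2 fold change 4.85, SE 0.56, FDR = 0.00125). Its control values rest on 2, 3 and 0 counts. Tyrobp (DAP12), the adaptor of Trem2 and other myeloid receptors, was at 4.40, 4.49 and 2.14 CPM against 0.229, 0.238 and 0.0339 CPM (21.5-fold, log2 fold change 4.42, SE 0.58, FDR = 0.00189). Trem2, a lipid-sensing receptor, was at 2.01, 1.62 and 0.846 CPM against 0.0382, 0.178 and 0.102 CPM (13.0-fold, log2 fold change 3.71, SE 0.56, FDR = 0.00306). In all 4 genes every NF-YA cKO library lay above every NF-YA fl/fl library, as in 29.1% of all genes tested. Tyrobp and Trem2 lost their calls without NF-YA cKO replicate 1 or 2 or NF-YA fl/fl replicate 1, with FDR values up to 0.0129 and 0.0177. On the per-length scale, Tyrobp stood above Trem2 in NF-YA cKO cells, at 9.82 ± 3.55 TPM and 1.73 ± 0.74 TPM (SD, n = 3), whereas the levels of Fcer1g (3.75 ± 0.511 TPM) and Fcgr3 (3.37 ± 0.909 TPM) differed by less than their spread. Fcgr1, the high-affinity receptor for immunoglobulin G, held 10, 14 and 3 counts against 1, 0 and 0 and was not tested. Reads of Fcgr3 can be shared with close relatives of the same family and its level is uncertain to that extent.

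C1qa, C1qb and C1qc encode the chains of C1q, the recognition molecule of the classical complement pathway, which tissue macrophages secrete. They lie side by side on the minus strand of chromosome 4 (GRCm38), C1qb from 136880129 to 136886187, C1qc from 136889804 to 136893065 and C1qa from 136895917 to 136898803. C1qa was at 2.23, 4.51 and 1.93 CPM in NF-YA cKO and at 0.382, 0.297 and 0.102 CPM in the controls (11.0-fold, log2 fold change 3.47, SE 0.54, FDR = 0.00351). C1qb was at 1.56, 4.10 and 0.964 CPM against 0, 0.149 and 0.0339 CPM (log2 fold change 4.99, SE 0.92, FDR = 0.00637). C1qc was at 1.98, 5.07 and 1.6 CPM against 0.191, 0.208 and 0.373 CPM (11.1-fold, log2 fold change 3.47, SE 0.58, FDR = 0.00451). All 3 chains were highest in NF-YA cKO replicate 2, at 2.17-fold (C1qa), 3.25-fold (C1qb) and 2.83-fold (C1qc) of the mean of the other NF-YA cKO libraries, whereas the median of this ratio over the 23 called members was 1.2. Apoe, a lipid carrier secreted by macrophages, was also highest there, at 20.1, 39.1 and 21.5 CPM, which is 1.88-fold of the mean of the other libraries. Per length, the chains were present at similar levels in NF-YA cKO cells, at 3.30 ± 1.32, 2.54 ± 1.70 and 3.36 ± 1.92 TPM (SD, n = 3) for C1qa, C1qb and C1qc. With single libraries left out, C1qb lost its call in all 6 fits (FDR up to 0.0246), C1qa in each but that without NF-YA fl/fl replicate 3 (up to 0.0155), and C1qc without NF-YA cKO replicate 1 or 2 or NF-YA fl/fl replicate 1 or 2 (up to 0.0237).

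The scavenger, lectin and endotoxin receptors were divided. Msr1, the class A scavenger receptor that takes up modified lipoproteins, was at 12.0, 10.3 and 6.46 CPM in NF-YA cKO and at 0.344, 0.476 and 0.407 CPM in the controls. The lowest NF-YA cKO library lay 13.6-fold above the highest control, and Msr1 was called 23-fold higher (log2 fold change 4.52, SE 0.32, FDR = 0.000239). Mrc1 (CD206), the mannose receptor, was at 3.73, 4.01 and 3.15 CPM against 0.879, 0.446 and 0.475 CPM (6.08-fold, log2 fold change 2.60, SE 0.32, FDR = 0.00151), and lost its call without NF-YA cKO replicate 2, at an FDR of 0.0123. Cd163, the receptor for haemoglobin-haptoglobin complexes, was the one member with more reads in the controls, with 3, 5 and 3 counts in NF-YA cKO and 10, 21 and 4 in NF-YA fl/fl. It did not pass the filter, and without a filter its log2 fold change of -1.94 was not called (FDR = 0.0544).

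Cd14, the co-receptor for endotoxin, was at 6.57, 4.25 and 3.88 CPM in NF-YA cKO and at 2.37, 3.57 and 0.577 CPM in the controls. The genotypes did not overlap in CPM, although they overlapped in TPM, where NF-YA fl/fl replicate 2 (3.27) lay above NF-YA cKO replicates 2 (2.75) and 3 (2.85). Cd14 was not called (log2 fold change 1.16, SE 0.57, FDR = 0.151). Lgals3, a galactose-binding lectin abundant in macrophages and also made by many other cells, was at 180, 205 and 201 CPM in NF-YA cKO and at 191, 188 and 158 CPM in the controls. It overlapped between genotypes and was not called (log2 fold change 0.13, SE 0.11, FDR = 0.395). At 168 ± 45.9 TPM (SD, n = 3), it was by far the most abundant member in NF-YA fl/fl cells, where it took 85.0% to 89.0% of the summed TPM of all 32 genes. In NF-YA cKO cells its level was 170 ± 9.06 TPM and its share 28.6% to 42.8%.

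Lysosomal and antibacterial proteins contained the most abundant genes that changed, and all 6 were called higher, beside 4.65% of all genes tested. Lyz2 and Lyz1 encode lysozymes that break bacterial cell walls and lie next to each other on the minus strand of chromosome 10, Lyz2 from 117277331 to 117282321 and Lyz1 from 117287797 to 117292868 (GRCm38). Lyz2 was at 190, 203 and 101 CPM in NF-YA cKO and at 4.01, 6.24 and 1.97 CPM in the controls (40.1-fold, log2 fold change 5.33, SE 0.49, FDR = 0.000567). Lyz1 was at 27.5, 30.5 and 13.8 CPM against 0.535, 1.01 and 0.138 CPM (41.7-fold, log2 fold change 5.38, SE 0.61, FDR = 0.00122). Reads of these near-identical paralogs were apportioned by the quantifier, so that the division between them is uncertain. Lyz1 took 12.6%, 13.1% and 12.1% of the counts of both genes in NF-YA cKO replicates 1 to 3 (Wilson 95% intervals 11.9% to 13.4%, 12.4% to 13.8% and 11.2% to 13.0%). In NF-YA fl/fl it took 11.8%, 13.9% and 6.45% of 119, 244 and 62 counts, with intervals of 7.14% to 18.8%, 10.1% to 18.8% and 2.54% to 15.4% that overlap those of NF-YA cKO. The ratio of the paralogs was not distinguishable between genotypes at this depth. Lyz2 took 41.6%, 40.2% and 29.6% of the summed TPM of all members in NF-YA cKO libraries and 1.53% to 3.9% in NF-YA fl/fl libraries.

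Ctss, a lysosomal cysteine protease of antigen-presenting cells, was at 25.4, 33.7 and 15.0 CPM in NF-YA cKO and at 0.726, 0.922 and 0.339 CPM in the controls (36.8-fold, log2 fold change 5.20, SE 0.45, FDR = 0.000466). The lowest NF-YA cKO library stood 16.3-fold above the highest control. Mpeg1, a pore-forming protein of phagolysosomes, was at 16.6, 15.6 and 8.25 CPM against 1.61, 1.96 and 1.42 CPM (8.07-fold, log2 fold change 3.01, SE 0.32, FDR = 0.000931). Cd68, a glycoprotein of late endosomes and lysosomes, was at 6.89, 7.79 and 5.55 CPM against 0.879, 1.58 and 0.916 CPM (5.94-fold, log2 fold change 2.57, SE 0.29, FDR = 0.00122), and lost its call without NF-YA cKO replicate 2 (FDR = 0.0101). Gpnmb, a glycoprotein of phagocytes, osteoclasts and pigment cells, was at 127, 143 and 128 CPM against 27, 21.2 and 25.5 CPM. It had the lowest FDR of the members (5.42-fold, log2 fold change 2.44, SE 0.12, FDR = 6.6e-05) and was, after Lgals3, the most abundant of them in NF-YA fl/fl cells on the per-length scale, at 7.61 ± 0.93 TPM (SD, n = 3).

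Cybb (gp91phox) is the membrane-bound catalytic subunit of the NADPH oxidase that produces superoxide in phagocytes. It was at 13.6, 11.1 and 4.84 CPM in NF-YA cKO and at 0.459, 0.327 and 0.136 CPM in the controls, with 10.6-fold between the lowest NF-YA cKO and the highest control library (31.9-fold, log2 fold change 5.00, SE 0.55, FDR = 0.0011). The gene is X-linked. Ncf1 (p47phox), the cytosolic organiser of the same enzyme, was at 1.91, 1.76 and 1.46 CPM against 1.03, 1.90 and 0.475 CPM and was not called (log2 fold change 0.58, SE 0.46, FDR = 0.36). Its level in NF-YA fl/fl replicate 2 lay among those of the NF-YA cKO libraries. Of 4 further partners of the oxidase, Ncf4 and Rac2, named after their values were seen, were called higher. Both passed the filter on low counts only through NF-YA cKO libraries, and 4.65% of all genes tested were called higher. Cyba (p22phox), the membrane partner of Cybb, was at 24.5, 20.6 and 22.6 CPM against 14.4, 14.1 and 6.55 CPM (log2 fold change 0.95, SE 0.29, FDR = 0.0395), and did not pass the threshold.

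Summed over all 32 genes, the level was 587, 551 and 420 TPM in NF-YA cKO and 201, 248 and 134 TPM in NF-YA fl/fl, a ratio of the means of 2.67. Without Lgals3 the sums were 419, 389 and 240 TPM against 25.8, 37.2 and 14.8 TPM, a ratio of 13.5. The most abundant member was Lyz2 in NF-YA cKO replicates 1 and 2 and Lgals3 in the other 4 libraries.

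The called members were not spread evenly over the NF-YA cKO libraries. NF-YA cKO replicate 3 was the lowest of the 3 in 21 of the 23 (91.3%), whereas it was lowest in 33.3% of all genes tested. Replicate 1 was highest in 12 members and replicate 2 in 11. Relative to the mean of the other NF-YA cKO libraries, the level in replicate 3 ranged from 34.0% (C1qb) to 94.7% (Gpnmb), with a median of 57.1%. Adgre1 (35.2%), Ptprc (39.3%) and Cybb (39.3%) were among the most reduced, while Gpnmb, Laptm5 (91.3%) and Fcer1g (84.6%) were nearly level. The members not called did not share this order in each case, since Cx3cr1 was highest in replicate 3 and Lgals3 lowest in replicate 1. In the same libraries the deleted Nfya entry took 22.3%, 26.4% and 34.2% of Nfya counts, and Pax7 was highest in replicate 3. Whether either relates to the order of the members was not tested, and 3 libraries allow no correlation. Among NF-YA fl/fl libraries, replicate 2 was highest in 14 of the 23 and replicate 3 lowest in 13. The C1q chains were also lowest in NF-YA cKO replicate 3, and differed from the other called members in the margin by which replicate 2 was highest, which was the widest.

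**Figure D3:**
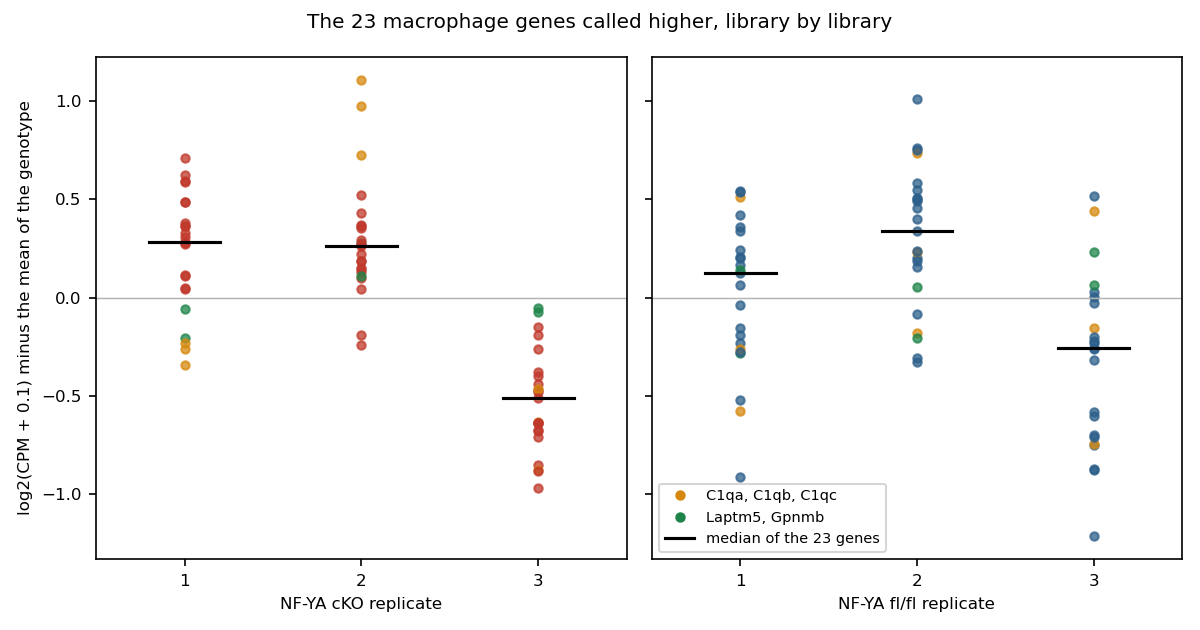
log2(CPM + 0.1) of the 23 genes called higher, minus the mean of the gene in its genotype, for NF-YA cKO (left) and NF-YA fl/fl libraries (right), with the median as a black bar. In NF-YA cKO the medians are 0.28, 0.26 and -0.51 for replicates 1 to 3, the C1q chains (orange) are highest in replicate 2, and Laptm5 and Gpnmb (green) stay near 0 in replicate 3.

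At the level of transcripts, members with several annotated transcripts and at least 100 counts per library could be described by the share of each transcript in the gene's TPM, as estimated by the quantifier. Lgals3 had enough counts in all 6 libraries, and its leading transcript took 49.9% to 54.5% in NF-YA cKO and 50.8% to 55.8% in NF-YA fl/fl, which overlap. For Ctss the leading transcript took 85.6% to 88.6% in NF-YA cKO libraries and for Cd68 79.9% to 86.4%. The shares of Mpeg1 ranged from 31.4% to 100% between NF-YA cKO libraries, and no reading is given for them. Control libraries had too few counts of these genes for the same comparison.

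A further 77 genes that work with the members were listed by role. Of these, 72 were tested, 30 were called higher and 2 lower, beside 4.65% and 7.67% of all genes tested. The 72 had a median log2 fold change of 1.51, beside -0.02 over all genes tested. Many of the genes called higher passed the filter on low counts only through NF-YA cKO libraries, which favours this count and the median. Among 11 tested transcription factors, Irf8, named after its values were seen, was called higher and 2 were called lower, Runx1 among them. Runx1, a regulator of blood cell development that is also active in myoblasts, was at 107, 124 and 117 CPM against 377, 273 and 551 CPM (log2 fold change -1.79, SE 0.25, FDR = 0.00233). The level of Runx1, at a mean of 41.1 TPM over the 6 libraries, was far above that of Spi1, at 0.403 TPM. Cebpb, a leucine zipper factor of myeloid and many other cells, had a log2 fold change of 0.68 (SE 0.13, FDR = 0.00727) and did not reach the fold threshold.

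Of the genes of leukocyte movement and adhesion, 6 of 8 of the leukocyte cytoskeleton were called higher, beside 4.65% of all genes tested. Of the beta2 integrins and complement receptors, 3 of 5 tested were called higher. Several called genes of both lists passed the filter on low counts only through NF-YA cKO libraries, which favours these counts. Lcp1 (L-plastin), an actin-bundling protein, was at 15.9, 13.9 and 8.51 CPM in NF-YA cKO and at 0.688, 0.773 and 0.882 CPM in the controls (log2 fold change 4.02, SE 0.30, FDR = 0.000284). Itgb2 (CD18), the beta chain that pairs with Itgam, was at 8, 7.19 and 4.82 CPM against 0.65, 0.535 and 0.305 CPM (log2 fold change 3.74, SE 0.35, FDR = 0.000599). Itgam had a log2 fold change of 2.98 (SE 0.31), and no test of the difference between the chains was made. Arhgdib, a GTPase regulator of blood cells, was the most abundant gene of the cytoskeleton list, at a mean of 29.0 TPM over the 6 libraries, and was not called (log2 fold change 0.83, SE 0.54, FDR = 0.259). C3ar1, the receptor for complement fragment C3a, was not called either (log2 fold change 1.85, SE 0.48, FDR = 0.023).

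The counts of the next lists stand beside 4.65% of all genes tested that were called higher. Several of their called genes also passed the filter on low counts only through NF-YA cKO libraries. Among lectins, scavenger and apoptotic cell receptors, 6 of 10 tested genes were called higher. The most abundant of them, Sirpa (log2 fold change 0.34, SE 0.17, FDR = 0.151) and Cd36 (1.67, SE 0.37, FDR = 0.0126), were not. In Fc receptor and kinase signalling, 5 of 11 were called higher. The kinases Lyn (0.65, SE 0.28, FDR = 0.11) and Syk (-0.28, SE 0.48, FDR = 0.678), which take part in signalling through Fcer1g and Tyrobp, were not. Toll-like receptors and their partners gave 2 of 8, and their most abundant genes, the endotoxin receptor Tlr4 (-0.80, SE 0.12, FDR = 0.0027) and the adaptor Myd88 (0.13, SE 0.13, FDR = 0.44), were not called. Genes of lipid handling and cytokines gave 2 of 8. Apoe was called higher (2.78, SE 0.30, FDR = 0.00108), and Lpl (-1.63, SE 0.73, FDR = 0.117) was at 222 CPM in the controls replicate 3 against 44.7 and 28.5 CPM in the other controls. Of 7 ligands and cytokine receptors, 3 were called higher, and Ifngr1, the interferon gamma receptor, was not (0.34, SE 0.12, FDR = 0.0629). As with the members, NF-YA cKO replicate 3 was lowest in 26 of the 30 called genes.

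Markers of other cell types were read in the same fit, and their part in the results above was not tested. Their calls stand beside 4.65% of all genes tested that were called higher and 7.67% called lower. All 32 members summed to 541 to 751 CPM in NF-YA cKO and to 199 to 245 CPM in the controls. The 30 members other than Lgals3 and Gpnmb summed to 212 to 403 CPM in NF-YA cKO and to 16.1 to 33.5 CPM in the controls. No gene was left out of the lists of other cell types, so that their sums are not like this reduced one. Of 10 neutrophil genes, 3 were tested and S100a8 and Cxcr2 were called higher, with sums of 30.6 to 38.7 CPM against 11.7 to 15.0 CPM. This sum was not lowest in NF-YA cKO replicate 3, which held 38.2 CPM. Of 7 osteoclast genes, Acp5, Atp6v0d2 and Mmp9 were called higher among 4 tested, with overlapping sums of 28.9 to 41.1 CPM and 14.6 to 39.7 CPM. T and NK cell genes summed to 3.52 to 4.30 CPM against 1.16 to 2.82 CPM, with Cd2 and Gzma at 0 counts in all libraries and 2 of 10 tested. The B cell sum was 0.41 to 0.638 CPM against 0.339 to 0.743 CPM, with Ms4a1 at 0, and the mast cell sum at most 0.383 CPM in any library, with Cpa3, Mcpt4 and Tpsb2 at 0. Dendritic cell genes summed to 7.23 to 9.12 CPM against 10.8 to 18 CPM.

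Of the cells that reside in muscle, 1 of 5 tested endothelial genes was called higher (Kdr, sums of 13.2 to 18.1 CPM against 4.17 to 8.15 CPM). One of 6 fibro-adipogenic progenitor genes was called higher (Lum, 210 to 235 CPM against 52.6 to 280 CPM, the lowest in NF-YA fl/fl replicate 3). One of 5 tested pericyte and smooth muscle genes was called lower (Abcc9, 214 to 309 CPM against 224 to 617 CPM). In the Schwann cell list, 4 genes, Sox10 and Mbp among them, were called higher and Erbb3 lower among 6 tested, and the sum was 41.5 to 45.9 CPM against 110 to 153 CPM. The satellite cell and myoblast list had Cdh15 and Des called lower among 7 tested, and summed to 1450 to 1631 CPM against 2223 to 3878 CPM. Genes of these lists that were called were named after their values were seen.

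**Figure D4:**
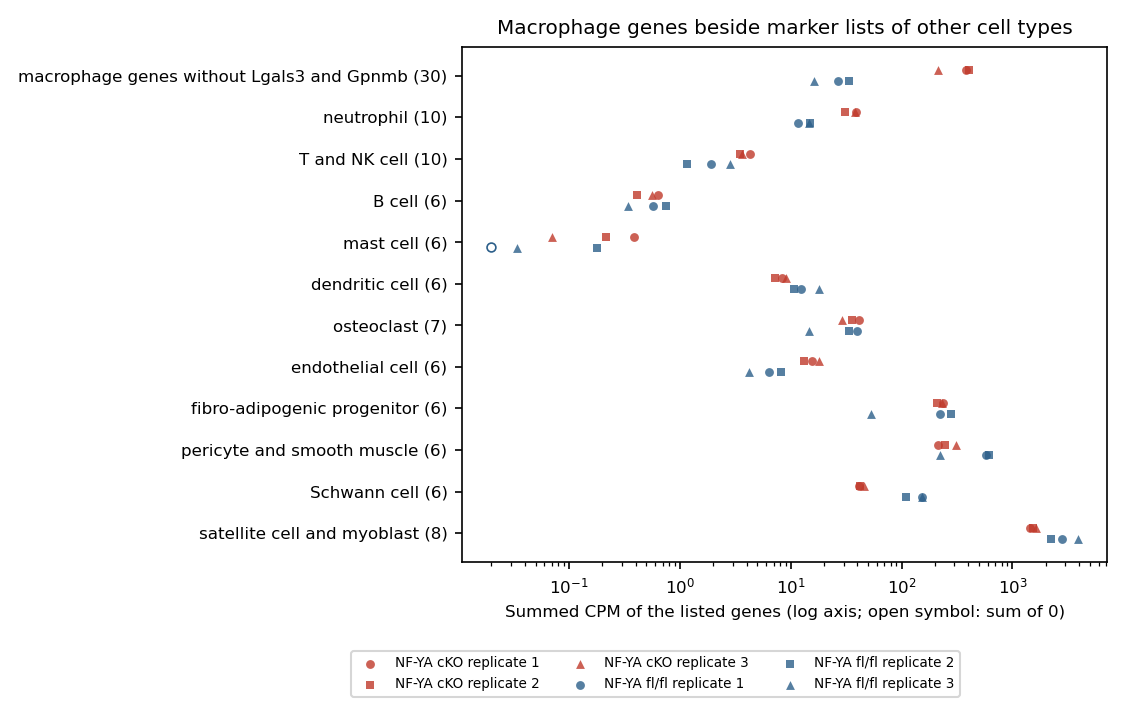
Summed CPM (log axis) of the 30 macrophage genes other than Lgals3 and Gpnmb and of marker lists of other cell types, with the number of genes in parentheses, in the 3 NF-YA cKO (red) and 3 NF-YA fl/fl libraries (blue). The macrophage sum lies at 212 to 403 CPM against 16.1 to 33.5 CPM, whereas all 32 genes sum to 541 to 751 CPM against 199 to 245 CPM. No gene was left out of the other lists. The neutrophil, T and NK cell and endothelial sums are also higher without overlap. The dendritic cell, Schwann cell and satellite cell sums are lower without overlap.

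The calls of 11 members were kept with each single library left out, those of Laptm5, Itgam, Fcgr3, Fcer1g, Msr1, Lyz1, Lyz2, Ctss, Gpnmb, Mpeg1 and Cybb. The other 12 lost the call at least once, and the number of members called higher was 14, 11 and 18 without NF-YA cKO replicate 1, 2 and 3, and 13, 17 and 20 without NF-YA fl/fl replicate 1, 2 and 3. These fits have fewer samples, and the highest FDR of any of the 23 genes in them was 0.0317 (Spi1).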

How the data were processed

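RNA of cultured satellite cells (500 ng total RNA) had been made into stranded total RNA libraries. By the study's methods and the submitters' processing notes, Bowtie2 was the authors' aligner, with mouse mm10 transcripts as the target, and RSEM estimated abundances. The deposited files hold an expected count and TPM for each gene, and the same with each transcript's percent of its gene's TPM, for each library. Expected counts share multiply mapped reads by estimate and were rounded to whole numbers here. Genes exceeding 10 counts in 2 or more of the 6 libraries were kept (17348 of 35976) and fitted without covariates in edgeR 4.0.16 (R 4.3.3, TMM, quasi-likelihood test, Benjamini-Hochberg FDR under 0.01, log2 fold change above 1 or below -1), after the study's filter and thresholds, in place of its DESeq2. TPM served for levels between genes.

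The 32 members and all lists were chosen with earlier results of these data known. Named were all members, in each further list the 2 genes with the highest mean TPM and any called lower, Nfya, Xist, Ddx3y and markers at 0 counts. Others are marked, and some genes that this rule names are not reported here. Coordinates are from GENCODE for GRCm38 and promoter windows from RefSeq. The procedure was tested on simulated data for this comparison (17001 genes). There, 96 of 100 genes changed by a log2 of 2 and 100 of 100 changed by 4 were called, with 4 of 16801 unchanged genes. Changed genes were drawn only above a minimum mean count, which Spi1 and Ms4a7 do not reach. The simulated spread followed the trend over all genes and was not specific to each gene. These rates may therefore not hold for members with few counts. Alternatives used DESeq2 1.42.0 and its size factors, other filters, limma 3.58.1 on log2(TPM + 1) and log2(TPM + 0.1), unrounded counts, an FDR of 0.05, edgeR's test of changes beyond a log2 of 1, a replicate block and each library left out. Intervals and limits cover counting error only.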

Additional observations from a re-analysis of the deposited data

How the results depend on the processing

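The number of members called higher (23) was 15 with the test against a log2 fold change of 1 and 11 to 20 with a library left out. It was 18 with limma on log2(TPM + 1), without Spi1, Ptprc, Ms4a7, C1qb and Mrc1, 21 with limma on log2(TPM + 0.1), without Spi1 and Ms4a7, and 23 with DESeq2, DESeq2 size factors, other filters, unrounded counts and an FDR of 0.05. No member was called lower in any alternative. Over all genes, 806 higher became 231 and 361 with limma on log2(TPM + 1) and log2(TPM + 0.1), 97 with the test against a fold and 177 to 890 with a library left out. The 1331 lower became 704 with limma on log2(TPM + 1), 510 with the test against a fold, 2025 at an FDR of 0.05 and 523 to 1684 with a library left out. Of the further genes, the 30 called higher became 10 with limma on log2(TPM + 1), 15 with the test against a fold and 11 to 31 with a library left out, and the 2 lower became 1 with the test against a fold and 1 to 3 with a library left out. Among the fits with a library left out, the counts of members and further genes called higher, and of all genes called in either direction, were lowest without NF-YA cKO replicate 2. Among 448 refitted log2 fold changes of members, 64 lost their call and 1 changed sign, that of Cd53 (-0.06 to 0.64 with a library left out, -0.06 without NF-YA fl/fl replicate 3). What caused these differences between fits was not tested. The median of all genes tested moved between -0.09 and 0.01.

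The labels do not say whether replicate numbers pair the libraries. Same-numbered libraries correlated at 0.165, -0.069 and 0.053 in their deviations, and differently numbered ones at -0.138 to 0.099. With so few libraries these values cannot decide whether the numbers pair. With the replicate block, 19 members were called higher, without Spi1, Ptprc, Ms4a7 and C1qc, as were 20 further genes. With the block, 625 genes were higher and 947 lower. Control levels of members such as Fcer1g and C1qb rest on a few counts per library, so that their fold changes are less certain than those of Lyz2, Ctss or Gpnmb.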
